A study of Mus musculus with 3 samples.

Results

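Eosinophil lineage cells are described here among CD45-positive cells of newborn mouse liver, as 59 of 25845 barcodes. A barcode was a member when it held at least 3 UMIs (unique molecular identifiers, each a counted transcript molecule) of Epx, the eosinophil peroxidase gene, and at least 2 UMIs of Il5ra, Ccr3, Siglecf or Prg2. Members were chosen by the counts of those 5 genes, so their levels, and any contrast of the class with other barcodes, are given as a description. The material was liver at postnatal day 0 from mice of the genotypes pex2+/+ (WT), pex2-/+ (Het) and pex2-/- (KO), with 1 library of each genotype. Pex2 encodes a membrane protein of the peroxisome import machinery, and its loss is used as a model of Zellweger disease, in which peroxisomes fail to form. Livers were dispersed through a strainer, hepatocytes were spun out, red cells were lysed, and viable CD45-positive cells were sorted, fixed and probed with the 10x Genomics Flex assay. The number and sex of the animals in each library, and whether animals were pooled, were not stated in the labels. With 1 library per genotype there is no test of genotype: a difference between libraries cannot be told apart from a difference between animals, sorts or runs, and all intervals below are exact 95% intervals that cover counting error only.

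Eosinophils are granulocytes that arise from myeloid progenitors, in the newborn partly in the liver, under Gata1, C/EBP factors and interleukin-5. Precursors fill their specific granules with very basic proteins: major basic protein (Prg2), its homologue (Prg3), eosinophil peroxidase (Epx) and eosinophil-associated ribonucleases (the Ear family). Surface Siglec-F (Siglecf), the interleukin-5 receptor alpha chain (Il5ra) and the eotaxin receptor (Ccr3) mark the lineage, Ccr3 mainly at later stages. Peroxisomes carry out fatty acid oxidation and plasmalogen synthesis and also hold catalase, which breaks down hydrogen peroxide.

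The promoters of 3 genes that mark these cells are shown because Gata1 is a known regulator of the lineage and Gata1 UMIs were counted in the cells. Each run is the 250 bases before the start of the gene, 5′ to 3′ on the gene's strand, from RefSeq on GRCm38.p6. Epx lies on the minus strand with this window at chr11:87875537-87875786, Prg3 on the plus strand at chr2:84987965-84988214, and Il5ra on the minus strand at chr6:106749038-106749287. Capitals mark a match to AGATAA or TGATAA or AGATAG or TGATAG, the letters of a GATA site, searched on both strands. Of 6 genes looked up (Epx, Prg2, Prg3, Ear6, Siglecf and Il5ra), 5 had an entry.
Epx: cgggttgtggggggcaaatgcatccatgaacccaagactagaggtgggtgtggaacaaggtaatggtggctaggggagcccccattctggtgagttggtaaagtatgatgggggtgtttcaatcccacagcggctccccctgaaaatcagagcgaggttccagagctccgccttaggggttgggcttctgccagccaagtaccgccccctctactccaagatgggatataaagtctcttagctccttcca
Prg3: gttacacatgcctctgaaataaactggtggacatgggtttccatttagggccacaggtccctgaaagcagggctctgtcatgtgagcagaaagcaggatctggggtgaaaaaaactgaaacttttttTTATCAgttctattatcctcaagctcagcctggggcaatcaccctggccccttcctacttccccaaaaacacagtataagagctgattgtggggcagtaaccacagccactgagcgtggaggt
Il5ra: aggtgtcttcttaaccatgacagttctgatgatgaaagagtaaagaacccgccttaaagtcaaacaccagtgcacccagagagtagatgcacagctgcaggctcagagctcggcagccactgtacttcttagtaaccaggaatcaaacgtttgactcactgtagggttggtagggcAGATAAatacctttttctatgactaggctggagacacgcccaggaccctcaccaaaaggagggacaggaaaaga
Prg3 holds 1 match, which starts 123 bases before the gene, and Il5ra holds 1, which starts 74 bases before it. Epx, Ear6 and Siglecf hold none in this window. Of 32851 promoters of this length, 26.5% hold at least 1 match, so such a match is common. A second motif, GAGGAA, the letters of a PU.1 site, was matched in Siglecf only among the 5, and is held by 23.3% of promoters.

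The libraries labelled WT, Het and KO held 9600, 8000 and 8245 barcodes with a median of 8218.5, 15558.5 and 19348 UMIs. Pex2 stood at 23.6, 53.3 and 0.0107 CPM (UMIs scaled to a library total of 1000000), so the KO label fitted its gene, while the library labelled Het held more Pex2 than the one labelled WT. Those 2 are therefore named by their labels throughout. No whole barcode was shared between libraries. The 16 bases of the gel bead part were shared by 961 to 1184 barcodes per pair of libraries. They were shared by 2 of 19, 10 of 25 and 4 of 15 eosinophil lineage cells, against 22.8%, 24.6% and 24.3% of all barcodes.

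The library labelled WT held 19 eosinophil lineage cells, which is 0.198% of its barcodes (exact Clopper-Pearson interval 0.119 to 0.309). The library labelled Het held 25, or 0.312% (0.202 to 0.461), and the KO library held 15, or 0.182% (0.102 to 0.300). The 3 intervals overlap. KO over labelled WT gave a ratio of 0.919 (exact interval 0.435 to 1.91), KO over labelled Het 0.582 (0.285 to 1.15), and labelled Het over labelled WT 1.58 (0.835 to 3.03). Every interval includes 1, so no difference in the share was detectable with this many cells.

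**Figure D1:**
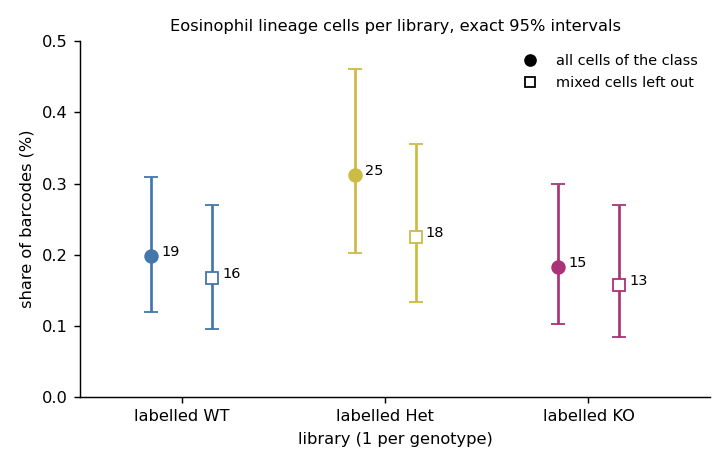
Share of each library's barcodes (%, y axis) that were eosinophil lineage cells, by library (x axis). Points are shares, bars exact 95% intervals and numbers the cells counted; filled circles hold all 19, 25 and 15 cells and open squares the 16, 18 and 13 left without mixed cells. All intervals overlap.

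The Epx threshold fell in a gap. The lowest member held 4, 6 and 5 Epx UMIs in the libraries labelled WT, Het and KO, and the highest barcode outside held 2 in each. All barcodes with at least 3 Epx UMIs met the second condition, each of them through Prg2. Outside the class a single Epx UMI or a pair was seen in 0.417%, 0.915% and 0.292% of barcodes. Among B-lineage barcodes, which should lack the gene, the share with an Epx UMI was 0.268%, 0.527% and 0%. The last is 0 of 893, which allows up to 0.336% when 3 barcodes are put in place of 0. Their median depth was 4855, 8378 and 6234 UMIs, against 8409, 16515 and 13286 in the eosinophil lineage cells.

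Of the other rule genes, Siglecf was counted at 2 or more UMIs in 18 of 19, 21 of 25 and 12 of 15 cells. Il5ra reached 2 UMIs in 2, 7 and 6 cells and had any UMI in 7, 14 and 8. Of B-lineage barcodes, 4.93%, 11.8% and 2.02% held an Il5ra UMI and 1.18%, 2.03% and 1.57% a Siglecf UMI, at the depths just given. Ccr3 gave 1 UMI in 1 cell labelled WT and 0 in all other cells. By the exact interval, 0 of 25 and 0 of 15 allow a share with a UMI of up to 13.7% and 21.8%. The label thus rests on granule genes and Siglecf, while Ccr3, the receptor of eotaxin, was at or near 0. Epx lies at chr11:87864000-87875536, Prg2 at chr2:84980461-84983632, Siglecf at chr7:43351341-43359531 and Il5ra at chr6:106710357-106749037 (GRCm38).

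Some members carried the transcripts of another lineage as well. A cell was called mixed when late neutrophil genes (S100a8, S100a9, Camp, Ltf, Ngp, Lcn2, Retnlg) made up at least 2% of its UMIs and at least 100 UMIs, or when B-lineage, monocyte or plasmacytoid dendritic genes reached 20 UMIs or basophil genes 30. This cut was chosen after the values were seen. By it 3, 7 and 2 cells were mixed. The 3 labelled WT carried B-lineage genes, 1 of them with plasmacytoid dendritic genes too. Of the 7 labelled Het, 6 carried neutrophil genes and 1 basophil genes. The 2 KO cells carried neutrophil genes (79212 UMIs, the deepest of the class) and monocyte genes (40117 UMIs). Mixed cells held 22.7%, 36.1% and 43.8% of the class's UMIs, and the deepest KO cell alone 29.1%. Scrublet, a doublet caller, marked 1, 0 and 0 class cells. Whether mixed barcodes hold more than 1 cell was not tested. Many gene results are therefore given with all cells and with the 16, 18 and 13 unmixed cells. Where unmixed cells are not named, a value of the class covers all its cells, and its dependence on mixed cells is not shown.

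Markers of other lineages differed in how they stood in unmixed cells. Monocyte, B-lineage and erythroid lists lay below the sums of all other barcodes. The 10 monocyte markers in the files summed to 44.2, 40.2 and 65.4 CPM, the 12 B-lineage markers to 140.0, 68.3 and 45.8 CPM, and the 13 erythroid markers to 95.8, 100.5 and 144.0 CPM. All other barcodes held 1388, 1348 and 2533 CPM of the monocyte, 2395, 1805 and 945 CPM of the B-lineage and 249.96, 692 and 302 CPM of the erythroid list. Other lists lay above all other barcodes. The T, NK and innate lymphoid list summed to 1024, 732 and 530.1 CPM against 368, 371 and 289 CPM, nearly all of it Nkg7, a granule protein of cytotoxic cells, at 1009, 728 and 530.1 CPM, while Cd3e was at 0. Basophil and mast markers summed to 2173, 1596 and 1983 CPM against 467, 426 and 257 CPM, led by Hdc at 1112, 1017 and 1191 CPM. Megakaryocyte markers summed to 420, 334 and 288 CPM against 69.6, 79.5 and 45.3 CPM, led by Itga2b, an integrin chain, at 258, 169 and 170.1 CPM. With all cells those B-lineage markers summed to 1214, 54.0 and 40.4 CPM and the monocyte markers to 484, 48.8 and 1246 CPM. Mcpt8, the basophil protease, stood at 34.2, 12.9 and 33.1 CPM in the class and at 9870, 5445 and 2987 CPM in 194 basophil and mast lineage barcodes. S100a8, a neutrophil gene that 98.6% to 99.9% of B-lineage barcodes also carried (16912, 12825 and 22616 CPM), stood at 825, 788 and 831 CPM in unmixed members.

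Granule genes took up a large part of each cell's RNA. Prg2 alone made up a median of 10.3%, 10.2% and 7.87% of a cell's UMIs, with a range of 0.0424% to 23.6% labelled WT, 0.0137% to 21.2% labelled Het and 0.618% to 14.7% in KO. Summed over cells, Prg2 stood at 96948, 80833 and 42845 CPM, here scaled to the UMIs of the class. In unmixed cells it was 103489, 110140 and 66251 CPM. Epx followed with 11104, 12073 and 6871 CPM (unmixed 11868, 16555 and 9482), and Prg3 with 3891, 4280 and 3116 CPM (unmixed 4369, 5865 and 3828). Prg2, Epx and Prg3 were thus lowest in KO, and the rule used Prg2 and Epx but not Prg3. The order of Prg2 above Epx above Prg3 held for the sums of each library, and Epx was above Prg3 in 53 of 59 cells. In all other barcodes Prg2 stood at 6.09, 6.62 and 7.26 CPM, and Epx at 0.425, 0.534 and 0.140 CPM.

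Cells very rich in Prg2 were counted in 2 libraries. More than 15% of UMIs came from Prg2 in 6 of 19 cells labelled WT (31.6%, exact interval 12.6 to 56.6), in 12 of 25 labelled Het (48.0%, 27.8 to 68.7) and in 0 of 15 KO cells (0%, 0 to 21.8). Among unmixed cells the counts were 6 of 16, 12 of 18 and 0 of 13. The 15% line was drawn after the values were seen, Prg2 is a rule gene, and these cells come from 1 library per genotype, so this is a description of 3 libraries.

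Ear6, a secreted ribonuclease of eosinophil granules that the rule did not use, had the opposite order from Prg2 in the sums of all cells. It gave 493, 2064 and 1644 UMIs, or 2809, 5306 and 6041 CPM, and 3065, 7522 and 7395 CPM in unmixed cells. KO exceeded labelled WT 2.15-fold (1.94 to 2.38), while KO and labelled Het differed by 1.14-fold (1.07 to 1.22) with all cells and by less than that, in the other direction, without mixed cells. Per cell, Ear6 ran from 92.1 to 6613 CPM with a median of 2844 labelled WT, from 0 to 15037 with a median of 5783 labelled Het, and from 921 to 13584 with a median of 4826 in KO. The cells of the libraries overlap. Ear6 was above Epx in 2 of 19, 4 of 25 and 6 of 15 cells. Ear6 belongs to a family of near-identical genes, so its value is uncertain where probes cross. The granule list had 13 of 18 genes with at least 10 UMIs: 4 were above both other libraries in KO and 6 below both. Of all 8699 genes with that many UMIs, 39.5% were above both by any amount and 28.5% below both, and the list counts that follow are read against these shares. Its median log2 ratio was -0.32 for KO over labelled WT and -0.08 for KO over labelled Het, against 0.03 and 0.15 over all genes.

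**Figure D2:**
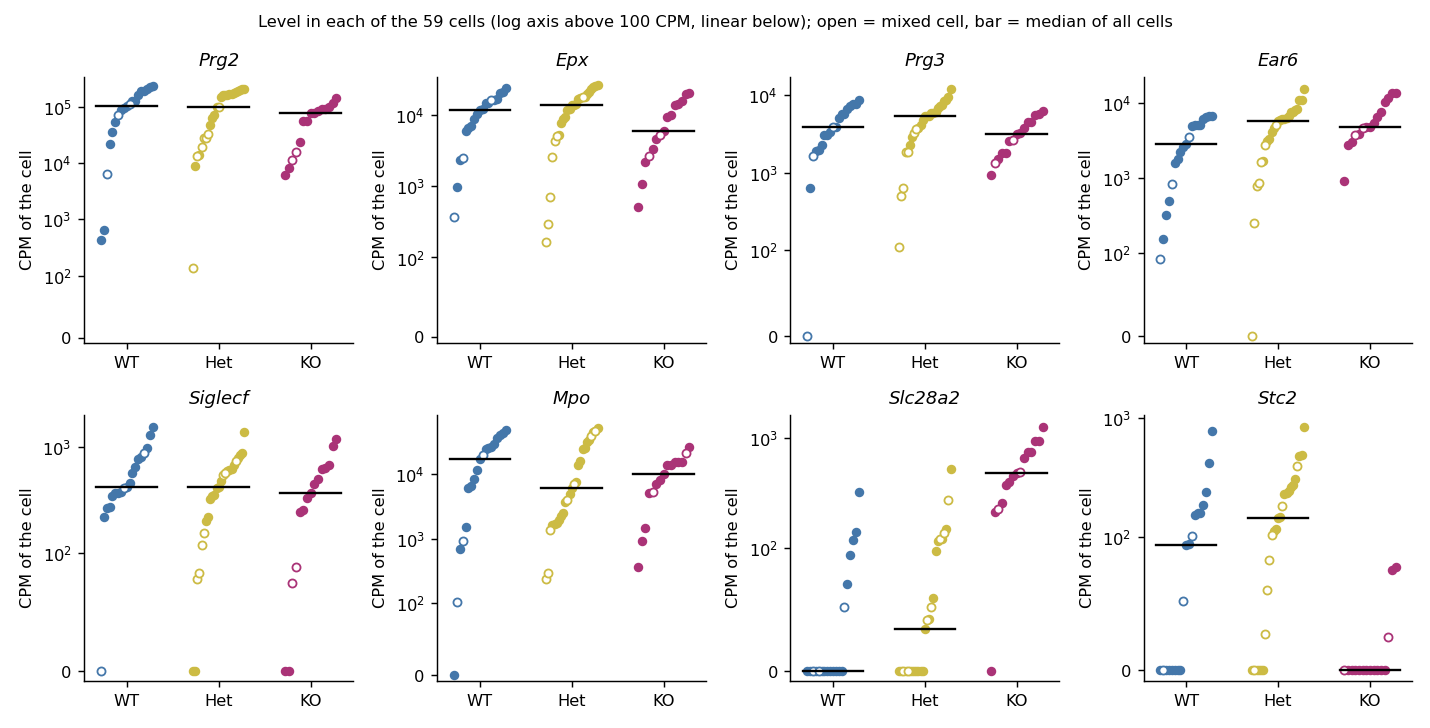
Level of 8 genes in each of the 59 cells, in CPM of the cell (y axis, linear up to 100 and logarithmic above), by library (x axis). Each point is a cell, open points are mixed cells and bars are medians; granule genes span a wide range in all libraries, Slc28a2 is at 0 in 13 of 19, 12 of 25 and 1 of 15 cells, and Stc2 is at 0 in 8, 6 and 12.

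Precursor genes were high in the same cells. Mpo, the myeloperoxidase of early granulocyte granules, gave 3550, 8022 and 3965 UMIs, or 20226, 20623 and 14570 CPM, and was seen in 58 of 59 cells. B-lineage barcodes held 793, 545 and 1265 CPM of Mpo, so the class lay above them in each library. Neutrophil precursors held 21190, 18550 and 8538 CPM of Mpo, but they were picked by their Elane and Mpo counts, so the levels of both genes in them were set by that choice. Elane, the neutrophil elastase, stood at 330.5, 1252 and 647 CPM in the class and was counted in 13 of 19, 18 of 25 and 11 of 15 cells. The highest cell labelled Het held 246 Elane UMIs, while the highest unmixed cell labelled Het held 85. Myb, a transcription factor of dividing progenitors, stood at 2011, 1951 and 1981 CPM. Its ratios were 0.985 (0.860 to 1.13) for KO over labelled WT and 1.02 (0.907 to 1.14) for KO over labelled Het. Kit, the stem cell factor receptor, was counted in 17, 22 and 13 cells, and Cd34 in 14, 16 and 12.

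Across cells, Prg2 and Mpo ran in opposite directions. Among unmixed cells Spearman's rho between them was -0.77 labelled WT (16 cells), -0.71 labelled Het (18 cells) and -0.21 in KO (13 cells). With all cells it was -0.51, -0.37 and -0.30. Points of 1 library share its preparation, both values share the cell's total, and Prg2 takes up to 23.6% of that total. Depth moved with both: UMIs per cell and Mpo had a rho of 0.56, 0.89 and 0.81 among unmixed cells, and UMIs and Prg2 one of -0.34, -0.68 and -0.20. The part of depth in the relation was not tested. Mpo exceeded Prg2 in 4, 4 and 3 cells.

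**Figure D3:**
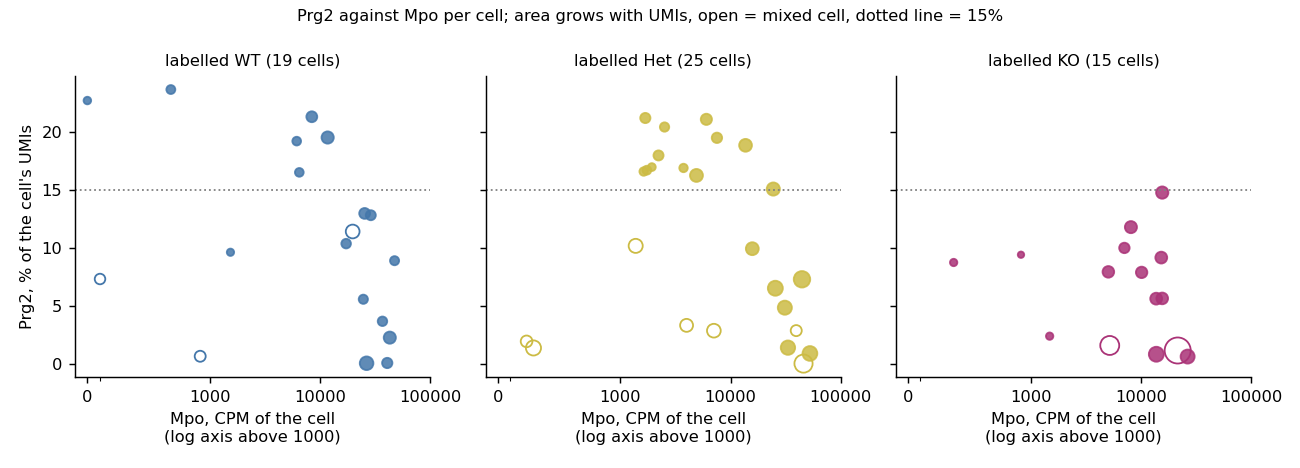
Prg2 as a percentage of each cell's UMIs (y axis) against Mpo in CPM of the cell (x axis, linear near 0 and logarithmic above), 1 panel per library. Points are cells with area growing with UMIs, open points are mixed cells, and the dotted line is at 15%; 6, 12 and 0 cells lie above it.

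Lineage regulators came next. Cebpe, a C/EBP factor needed for late granulocyte maturation, stood at 1476, 1298 and 1220 CPM. Gata1 gave 22, 23 and 32 UMIs in 10, 10 and 11 cells, or 125, 59.1 and 118 CPM. Of 28 listed transcription factors 26 had at least 10 UMIs, 7 above both and 9 below both in KO, beside 39.5% and 28.5% of all genes. Id2, an inhibitor of helix-loop-helix factors, was the 1 member past 2-fold, at 62.7, 95.1 and 231 CPM. Without mixed cells Id2 was 44.2, 32.2 and 13.1 CPM on 6, 8 and 2 UMIs, so KO was then the lowest of the 3. Gata2, which marks basophil and mast lineages, stood at 148, 56.6 and 33.1 CPM, against 3483, 1947 and 992 CPM in basophil and mast lineage barcodes.

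Of the receptors, which let the cells respond to growth factors, Il5ra stood at 57.0, 69.4 and 69.8 CPM on 10, 27 and 19 UMIs. KO over labelled WT was 1.23 (0.542 to 2.95) and KO over labelled Het 1.01 (0.529 to 1.88), and both intervals include 1. B-lineage barcodes held 8.21, 13.6 and 2.18 CPM of Il5ra. Siglecf stood at 536, 437 and 338 CPM with all cells and at 538, 482 and 537 CPM in unmixed cells, so the lower KO value was not seen there. Csf2rb, the beta chain shared by the receptors of interleukin-3, interleukin-5 and GM-CSF, stood at 114, 201 and 165 CPM. Il3ra stood at 399, 131 and 147 CPM. The list of interleukin-5 family signalling had 38 of 42 genes with at least 10 UMIs, 15 above both and 11 below both in KO and 0 past 2-fold, which is near the 39.5% and 28.5% of all genes. Its medians were 0.16 and 0.01, near those of all genes. Jak2, the kinase on the beta chain, stood at 96.9, 82.3 and 180 CPM, and in unmixed cells at 81.0, 76.4 and 222 CPM.

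Besides the granule genes, other transcripts set these cells apart from the rest of their libraries, a comparison that the rule fixed. By the smallest log2 difference over the libraries, with 10 CPM added, the leading genes after Prg2, Epx, Prg3, Ear6 and Siglecf were Muc6, a secreted mucin, and Il17rb, the receptor of interleukin-25. Muc6 stood at 256, 183 and 279 CPM against 0.487, 1.24 and 1.27 CPM in all other barcodes, and Il17rb at 234, 175 and 261 CPM against 1.01, 1.94 and 0.817 CPM. Basophil and mast lineage barcodes held 23.7, 29.7 and 28.3 CPM of Muc6 and 58.6, 97.6 and 80.5 CPM of Il17rb. Vat1, Ikzf2, Cd63, Zbtb16, Hdc, Emid1, Nkg7, Calr, Rnf125, Fut8, Tent5a, Myb and Ramp1 completed the first 20. Several of these were as high or higher in basophil and mast lineage barcodes. Hdc, which makes histamine, stood at 974, 920.4 and 963 CPM in the class and at 2403, 1580 and 1209 CPM there. Ikzf2, a transcription factor, stood at 273, 211 and 202 CPM and there at 284, 243 and 272 CPM, and Nkg7 at 849, 661 and 441 CPM and there at 1159, 761 and 391 CPM. Cd63, a granule membrane tetraspanin, stood at 3578, 2602 and 2462 CPM in the class and at 2436, 1859 and 1344 CPM there.

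KO was then set against both other libraries, gene by gene, over the cells of the class. Of 6121 genes with at least 30 UMIs, 130 were at least 2-fold above both (2.12%) and 118 at least 2-fold below both (1.93%). In unmixed cells 109 of 4627 genes were above (2.36%) and 116 below (2.51%), of which 38 and 43 were among those counted with all cells. The TMM scaling of edgeR, gave 92 above and 151 below, and the size factors of DESeq2 91 and 152. These are counts past a size, not counts of genes shown to differ.

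Slc28a2, a sodium-coupled nucleoside transporter at chr2:122426477-122461137 (GRCm38), had the largest excess in KO by the naming rule. It gave 6, 25 and 139 UMIs, or 34.2, 64.3 and 511 CPM, in 6 of 19, 13 of 25 and 14 of 15 cells. KO was 14.9-fold labelled WT (6.69 to 41.4) and 7.95-fold labelled Het (5.16 to 12.7). The highest cell reached 324 CPM labelled WT and 522 CPM labelled Het, and the KO median was 479 CPM, so the groups overlap in their tails. Unmixed cells gave 36.8, 52.3 and 595 CPM. In all other barcodes Slc28a2 stood at 20.2, 47.4 and 111 CPM, the same order with a smaller difference, and in basophil and mast lineage barcodes at 32.7, 215 and 1612 CPM. A neighbouring gene of similar sequence, Slc28a2b, has no row in these files, and whether its transcripts were counted was not tested.

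Stc2, a secreted glycoprotein of the stanniocalcin family at chr11:31357307-31370074 (GRCm38), had the largest deficit by the same rule. It gave 20, 73 and 3 UMIs in 11, 19 and 3 cells, or 114, 188 and 11 CPM. The ratio was 0.0967 for KO over labelled WT (0.0184 to 0.326) and 0.0587 for KO over labelled Het (0.0118 to 0.179). Unmixed cells gave 133, 229 and 13.1 CPM. Summed over all other barcodes Stc2 stood at 7.56, 22.1 and 3.14 CPM, so the class stood above that sum in each library, in KO on 3 UMIs. Neutrophil precursors held 30.3, 66.1 and 6.54 CPM of Stc2, the same order as in the class. Jund, a subunit of the AP-1 transcription factor, followed with 689, 401 and 88.2 CPM (unmixed 670, 454 and 118), against 385, 236 and 172 CPM in all other barcodes.

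The other named genes split by how much they leaned on mixed cells. Higher in KO were Mki67, Lgals3, Dbi, Muc13, Vim, Ncapd2 and 5 mitochondrially encoded genes besides Slc28a2. Lgals3, a lectin of macrophages and neutrophils, stood at 51.3, 265 and 717 CPM with all cells and at 66.3, 52.3 and 45.8 CPM in unmixed cells, so KO was then the lowest. Muc13, a transmembrane mucin, stood at 91.2, 82.3 and 231 CPM with all cells and at 103, 117 and 151 CPM without mixed cells. Dbi, an acyl-CoA binding protein, stood at 96.9, 90.0 and 257 CPM, and in unmixed cells at 103, 96.5 and 203 CPM. Of the 12 genes named as higher, 9 had both intervals above 1 in unmixed cells.

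Lower in KO besides Stc2 and Jund were Gapt, Apoc1, Cdk5rap3, Myo1c, Atf4, Pxylp1, Selenow, Zmpste24, Ikzf3 and Slc39a11. Apoc1, a lipoprotein component, gave 40, 133 and 24 UMIs, or 228, 342 and 88.2 CPM (unmixed 265, 446 and 85.1), while all other barcodes held 34.2, 33.5 and 33.4 CPM. Basophil and mast lineage barcodes held 568, 570 and 249 CPM of Apoc1, also lowest in KO. Gapt, an adaptor bound to Grb2, stood at 194, 195 and 51.4 CPM, and Cdk5rap3 at 319, 206 and 80.8 CPM. All 12 kept their direction in unmixed cells, 7 of them with both intervals below 1. The other 5 were Myo1c, Selenow, Zmpste24, Ikzf3 and Slc39a11.

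**Figure D4:**
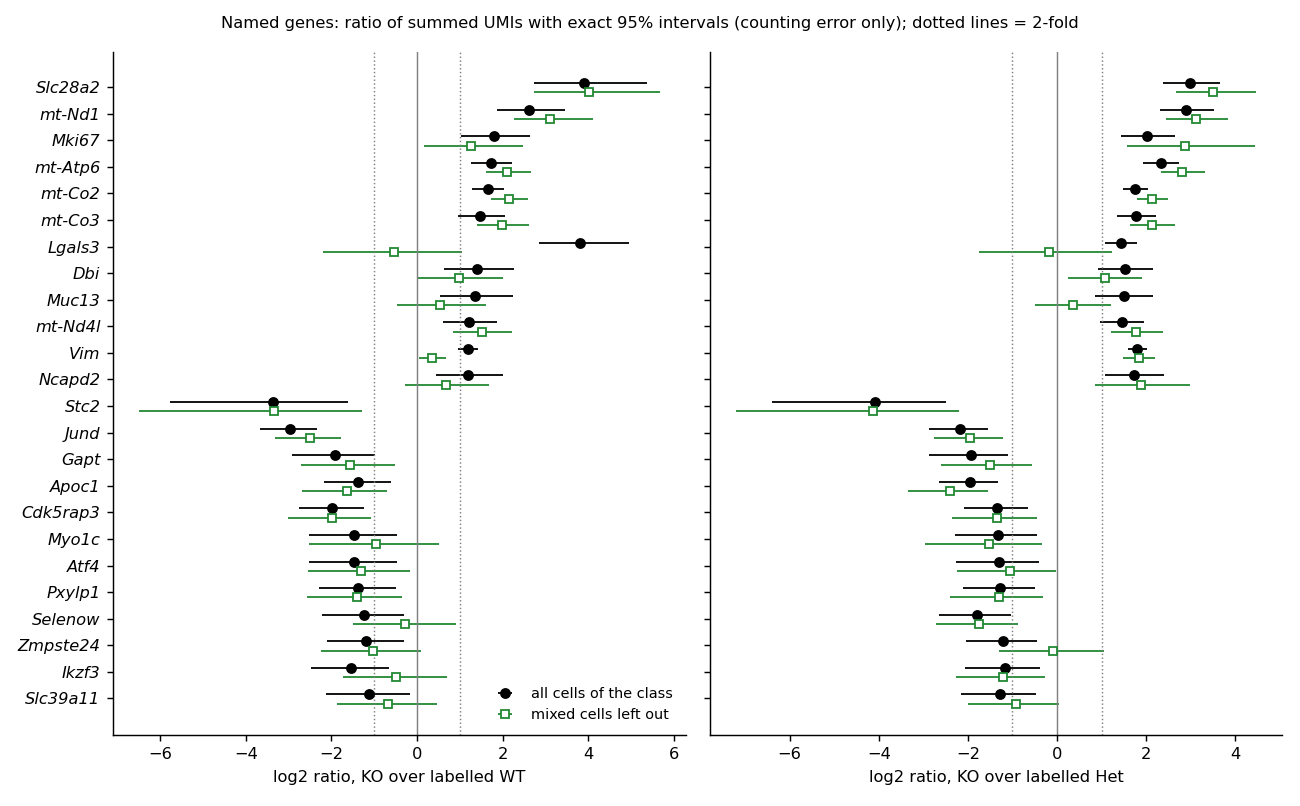
Log2 ratio of KO over labelled WT (left) and over labelled Het (right) for the 24 named genes (y axis). Black circles use all cells, green squares leave mixed cells out, bars are exact 95% intervals for counting error only, and dotted lines mark 2-fold; Slc28a2 and Stc2 stay beyond 2-fold both ways, while Lgals3 moves to below 0.

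Mitochondrially encoded transcripts, which code for subunits of the respiratory chain, were higher in KO. All 13 genes were measured, 10 stood above both other libraries in KO (39.5% of all genes) and 0 below both (28.5%), and 8 were past 2-fold, against 2.12% of all genes. The median log2 ratio was 1.15 for KO over labelled WT and 1.76 for KO over labelled Het, and 1.49 and 1.96 in unmixed cells. The named examples were mt-Nd1 at 91.2, 74.6 and 555 CPM and mt-Co2 at 405, 375 and 1268 CPM. Per cell the 13 genes took a median of 0.309%, 0.166% and 0.687% of UMIs. The highest cell labelled WT held 1.04%, above the KO median, and the highest labelled Het 0.444%. The lowest KO cell held 0.247%, so KO overlaps both other groups. The highest KO cell, with 8.20%, was also the shallowest with 1086 UMIs. The same list was higher in KO over all other barcodes, with medians of 1.11 and 0.72, so the direction was the same outside the class.

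**Figure D5:**
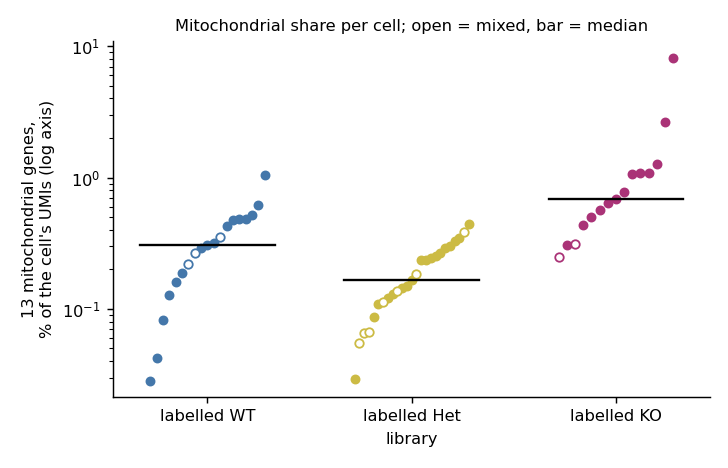
Share of each cell's UMIs from 13 mitochondrially encoded genes (%, logarithmic y axis) by library (x axis). Points are cells, open points mixed cells and bars medians at 0.309%, 0.166% and 0.687%; the KO cells sit highest, with overlap.

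Genes of mitosis depended on the mixed cells. With all cells, 25 of 27 measured genes were above both in KO, against 39.5% of all genes, and the medians were 1.40 and 1.29. Mki67, a marker of cycling cells, stood at 96.9, 82.3 and 334 CPM. The deepest KO cell alone held 398 of the 619 mitotic UMIs of KO. In unmixed cells 13 genes were measured, 5 above both and 3 below both, near the 41.7% and 27.6% of all genes in those cells, with medians of -0.17 and 1.47, and Mki67 stood at 73.7, 24.1 and 177 CPM. At least 2 UMIs of Mki67 or Top2a were counted in 4 of 16, 3 of 18 and 5 of 13 unmixed cells. A count took all cells, mixed ones included, with depth equalised at 3000 UMIs a cell and 1, 0 and 3 shallower cells dropped. In it Mki67 was counted in 1 of 18, 3 of 25 and 6 of 12, and Top2a in 3, 4 and 3 of the same cells. The 2 genes thus differed in how far KO stood apart.

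Genes of the ATF4 programme, which cells switch on when amino acids or protein folding fail, were set apart by the library labelled Het. Trib3 gave 0, 29 and 0 UMIs, Slc7a11 2, 39 and 0, and Sesn2 2, 36 and 6. These were spread over 12, 16 and 13 of the 25 cells labelled Het. Atf4 itself stood at 142, 126 and 51.4 CPM. In KO 13 of 20 measured genes were below both and 2 above both, against 28.5% and 39.5% of all genes, with medians of -0.52 and -1.36. The median for labelled Het over labelled WT was 0.90 in the class and 0.65 in all other barcodes. Over all other barcodes the medians for KO were -0.50 and -1.10, close to the values of the class. Among chaperones of the endoplasmic reticulum, 16 of 25 were below both and 2 above both, against the same shares, with medians of -0.29 and -0.35, against -0.29 and -0.42 in all other barcodes. Calr, calreticulin, stood at 974, 854 and 654 CPM.

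Peroxisome genes gave no common direction. Pex2 gave 4, 33 and 0 UMIs in 4, 16 and 0 cells. The KO class held 272142 UMIs, so a count of 0, taken as 3 counts, allows up to 11 CPM. The class stood at 22.8 and 84.8 CPM labelled WT and Het. Of the 22 genes of peroxisome biogenesis 20 were measured, 8 above both and 8 below both in KO, beside 39.5% and 28.5% of all genes, and Pex2 was the only one past 2-fold. Pex5, the import receptor, stood at 148, 105 and 103 CPM, and Pex6, a recycling ATPase, at 103, 100.3 and 110.2 CPM. Their medians were -0.01 and 0.05. Of 46 genes of peroxisomal enzymes and transporters 36 were measured, 14 above both and 7 below both, with medians of 0.03 and 0.32. Far2, which makes fatty alcohols for ether lipids, was past 2-fold, at 91.2, 131 and 40.4 CPM. Cat, catalase, stood at 285, 129 and 151 CPM, with 0.529 (0.341 to 0.816) for KO over labelled WT and 1.17 (0.756 to 1.81) for KO over labelled Het.

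Other lists gave the following. In peroxide removal and glutathione, Gstp1, a glutathione transferase with near-identical copies, stood at 131, 242 and 58.8 CPM and Txnrd1, thioredoxin reductase, at 85.5, 90.0 and 40.4 CPM, both past 2-fold in KO with and without mixed cells. Gpx3 was past 2-fold the other way with all cells, at 34.2, 28.3 and 129 CPM, and at 44.2, 24.1 and 58.9 CPM in unmixed cells. Alox15, the lipoxygenase of eosinophils and their precursors, gave 34, 30 and 8 UMIs in 6, 12 and 4 cells, or 194, 77.1 and 29.4 CPM. Of its 34 UMIs labelled WT, 12 lay in 1 mixed cell and 4 in another. In unmixed cells Alox15 was not past 2-fold below both. Averaged over cells rather than UMIs, Alox15 in KO exceeded labelled Het, so its order depends on few cells. Ccl9, a chemokine, stood at 228, 291 and 107 CPM, and Rrm2, of nucleotide synthesis, at 222, 162 and 69.8 CPM.

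The lists not yet described held few genes past 2-fold, and their counts stand beside 39.5% of all genes above both and 28.5% below both. Of 28 genes of receptors and surface proteins found in the files, 20 were measured, 5 above both and 7 below both in KO, with 0 past 2-fold. Migration and adhesion had 24 measured, 10 above and 8 below, with Fpr1, a formyl peptide receptor, past 2-fold below. The eicosanoid pathway had 16 measured, 4 above and 4 below. Pla2g7, a lipase of platelet activating factor, was past 2-fold above there and Alox15 past it below. Cytokines and chemokines had 12 measured, 3 above and 7 below, with Il1r2, a decoy receptor, past 2-fold above. Glycolysis and hypoxia had 20 measured, 6 above and 12 below, and fatty acid oxidation 19, with 5 above and 5 below, both with 0 past 2-fold. Interferon-stimulated genes had 8 measured, 4 above and 2 below, with 0 past 2-fold. S phase genes had 30 measured, 5 above and 8 below.

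Marker lists of other cells give the setting of these counts. Neutrophil markers, which include Mpo and Elane, summed to 32259, 76339 and 56632 CPM with all cells and to 35898, 31265 and 21006 CPM without mixed cells. With all cells basophil and mast markers summed to 1897, 1507 and 1562 CPM, macrophage markers to 188, 267 and 320 CPM, and T, NK and innate lymphoid markers to 894, 735 and 452 CPM. Dendritic markers summed to 336, 111 and 125 CPM and megakaryocyte markers to 359, 301 and 217 CPM. Hepatocyte and stromal markers summed to 91.2, 157 and 58.8 CPM, with 11, 9 and 10 of 13 at 0. The part of any such RNA in the gene differences was not tested.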

How the data were processed

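Single-cell RNA of fixed CD45-positive liver cells was captured with gene-specific probes in 3 libraries, 1 per genotype. The deposited values are raw counts of UMIs for 19059 genes in each barcode. Cell Ranger 7.0.0 and the build mm10 are named in the submitters' processing notes. Neither the probe set version nor any further barcode filter is given in the sources used here. Probes read only part of each transcript.

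Members were taken by the UMI rule in each library. UMIs were summed over members and given as CPM of the class total. Sums carry exact Poisson, ratios exact conditional binomial and shares exact Clopper-Pearson intervals at 95%. For log2 ratios 0.5 was added to both sums, and a sum of 0 was taken as 3 counts where genes past 2-fold were counted. Lists use genes with at least 10 UMIs, and counts of genes at least 30. Named in the text are the rule genes, Pex2, list members past 2-fold or of many UMIs, and 12 genes in each direction. These 12 had at least 30 UMIs, a mean of 100 CPM, a UMI in at least 50% of the cells on the higher side, a KO value outside both others and both intervals excluding 1, ranked by the smaller log2 ratio. With all cells this rule was met by 162 genes above and 76 below. The number of genes at these minima is not given, so the 2 counts carry no share. Of genes with at least 10 UMIs, 39.5% were above both and 28.5% below both by any amount. Leading genes needed a mean of 200 CPM. B-lineage barcodes had at least 3 Cd79a UMIs. Depth in the class was 2603 to 19229, 3624 to 36500 and 1086 to 79212 UMIs per cell.

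Doublets were called with Scrublet in scanpy 1.11.5 on Python 3.11.15, and kept in the main values. Alternatives used edgeR 4.0.16 and DESeq2 1.42.0 for scaling only, in R 4.3.3. The counting of genes past 2-fold was tested on simulated data, drawn as Poisson counts around the pooled profile of the class. That simulation holds no spread between cells and no mixed cells, so it cannot show how the counts behave under either. Promoters came from RefSeq. The members, lists and alternatives were chosen with earlier results of these data known, and the alternative without mixed cells, and that without the deepest barcodes for gene results, after seeing the data.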

Additional observations from a re-analysis of the deposited data

Results flagged for a closer look

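Muc13, a transmembrane mucin, was picked out because the class and all other barcodes moved in opposite directions. In the class the log2 ratio of KO was 1.31 over labelled WT and 1.48 over labelled Het, and in all other barcodes it was -1.21 and -1.99. Egfl7, a secreted protein of early progenitors, was picked out in the same way, with 1.28 and 1.49 in the class and -2.05 and -2.33 in all other barcodes. Egfl7 rests on 6, 12 and 24 UMIs. These differences were not tested, since each genotype has 1 library. Without mixed cells Muc13 stood at 103, 117 and 151 CPM and Egfl7 at 14.7, 36.2 and 91.6 CPM. For Muc13 the unmixed ratio was then 1.46 (0.720 to 3.07) over labelled WT and 1.29 (0.713 to 2.31) over labelled Het, and both intervals include 1. Basophil and mast lineage barcodes held 113, 261 and 250 CPM of Muc13, so KO was above labelled WT there too, and below labelled Het.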

How the results depend on the processing

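No paired analysis was possible because each genotype has 1 library, and the shared replicate number 1 pairs nothing. All 21 alternative share ratios stayed within the interval of the main value: KO over labelled WT ran from 0.767 to 0.978, KO over labelled Het from 0.487 to 0.701, and labelled Het over labelled WT from 1.35 to 1.66. The counts of genes past 2-fold in KO moved by over 1.5 times in 3 settings. Averaging over cells gave 330 above and 199 below, a minimum of 100 UMIs gave 22 above and 22 below, and a minimum of 1 UMI gave 380 above and 395 below. The other 14 alternative counts stayed within that factor. Of 746 values of single genes 661 stayed within the main interval, 81 moved and 4 reversed, and of 270 list medians 262 stayed, 6 moved and 2 reversed. Over labelled Het, the log2 ratio of Myo1c became 0.12 and that of Alox15 0.50 when averaged over cells. That of Ear6 became -0.087 with at least 10 Epx UMIs and -0.024 without mixed cells. The median of the mitosis list reversed to -0.17 over labelled WT without mixed cells and to -0.022 over labelled Het without barcodes above the 99th percentile of UMIs. The settings without mixed cells and without the deepest barcodes sum fewer cells; for the averages the cause was not tested. With 15 to 25 cells a library, no difference in the share was detectable.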
